A study of Hypomesus transpacificus with 70 samples.

Results

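The gills of delta smelt (Hypomesus transpacificus) exposed to 18 ppt were compared with those exposed to 12 ppt at 42 h, the last sampling time of an acute salinity exposure. The members were chosen by their labels alone and comprised 4 arrays at 18 ppt and 4 arrays at 12 ppt, 8 of the 70 arrays of the series. All fish came from an acclimation salinity of 2.3 ppt, spent a night in their exposure container, had the salinity raised to its target over 6 h, and were then held there, so that 0 h denotes the end of the rise. Each array carried gill RNA of 1 fish, the 18 ppt fish being numbered 1, 5, 6 and 7 and the 12 ppt fish 1, 2, 3 and 4. Per the methods, fish of a salinity and time shared a container, except the handling controls, which had additional replicate containers. Container and salinity thus cannot be told apart, and the tests measure only the spread between fish. The fish sampled at 0 and 18 h were different animals. Handling controls, 6 fish held at 2.3 ppt to 42 h, are given beside the values of both groups. Their labels carry the letters A, B and C, whose meaning the labels do not give, and this grouping was not part of the main fit.

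The fish gill moves salt through ionocytes, mitochondria-rich cells energised by Na+/K+-ATPase. In water more dilute than the plasma these cells take up ions. In water saltier than the plasma they secrete chloride, which enters the cell through the basolateral Na+/K+/2Cl- cotransporter. The cell types and the isoforms of the pumps and exchangers change as a fish moves between such waters, and the epithelium is renewed by cell division. The paper treats both salinities of these 8 arrays as hyperosmotic, that is, saltier than the plasma. The comparison thus sets a larger excess over the plasma against a smaller one, late in the exposure.

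One array stood apart from all others before any comparison was made. The array of 18 ppt fish 5 had the lowest median correlation with the remaining arrays of any of the 70 (r = 0.610), and its correlation with the other 7 arrays of the comparison ran between 0.581 and 0.697, against 0.88 to 0.955 among those 7. It was also dim. The median processed signal was 54.5, 15.4, 104 and 40.1 in 18 ppt fish 1, 5, 6 and 7, against 44.7, 46.9, 48.8 and 66.5 in 12 ppt fish 1 to 4. The probes well above background made up 83.0, 62.0, 86.6 and 75.3% on the 18 ppt arrays and 81.1, 77.7, 79.5 and 79.1% on the 12 ppt arrays. Neither measure differed between the salinities beyond the spread of the arrays (exact permutation test, two-sided, p = 0.914 for the median signal and p = 0.771 for the percentage, n = 4 and 4, smallest p possible 0.0286). The scanner's photomultiplier setting was 580 for 18 ppt fish 1, read on the second scan day, and 610 for the other 3 fish at 18 ppt, against 580 for 12 ppt fish 1, 2 and 3 and 610 for fish 4. The comparison was fitted with and without fish 5, and values without it stand beside the main results below.

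**Figure D1:**
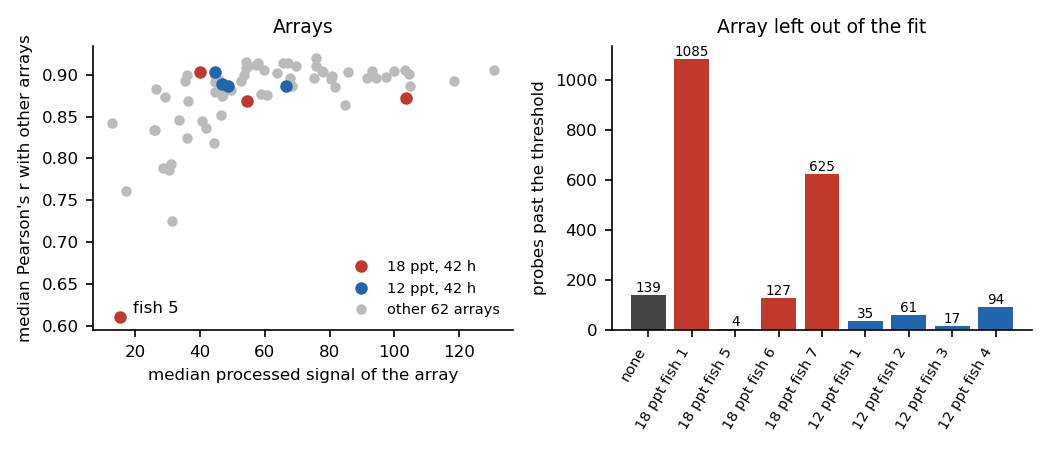
Left, each array's median processed signal against its median correlation (Pearson's r) with the other arrays, with 18 ppt at 42 h in red, 12 ppt at 42 h in blue and the other 62 arrays in grey; the array of 18 ppt fish 5 lies lowest, at 0.610. Right, bars give the number of probes past the threshold when no array or 1 array was left out of the comparison of 18 with 12 ppt at 42 h, from 4 probes without 18 ppt fish 5 to 1085 probes without 18 ppt fish 1.

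Of 14424 probes tested, 139 passed an adjusted p of 0.05 (0.964%; limma with Benjamini-Hochberg adjustment). They were mostly lower at 18 ppt than at 12 ppt, with 123 lower (0.853%) and 16 higher (0.111%). When probes of the same assembled transcript were averaged, 121 of 14253 transcripts and single probes passed (0.849%), 107 lower (0.751%) and 14 higher (0.0982%). Without 18 ppt fish 5 the count fell to 4 of 14402 probes (0.0278%), the 2 probes each of slc26a6l and foxa1, and to 2 of 14232 transcripts (0.0141%). Probes at an unadjusted p under 0.05 numbered 967 (6.71%) without fish 5 and 2929 (20.3%) with it. Leaving out 18 ppt fish 1 gave 1085 probes and leaving out 18 ppt fish 7 gave 625, whereas leaving out 12 ppt fish 3 gave 17, 12 ppt fish 1 gave 35 and 12 ppt fish 2 gave 61. The length of the list thus turned on single fish of both groups, while slc26a6l and foxa1 passed in each of the 8 fits that left out 1 array. Both lost the call when the 8 arrays were fitted alone, without the spread of the other groups, where no transcript passed (limma; 1311 at an unadjusted p under 0.05): slc26a6l differed by -3.75 (adjusted p = 0.474) and foxa1 by -1.60 (adjusted p = 0.506). With slide as a fixed block slc26a6l passed (adjusted p = 0.0283) and foxa1 did not (-1.32, adjusted p = 0.0513).

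Gene names were known only for the probes that the study listed as responding to salinity on these same arrays, so that the list is not independent evidence that its genes respond. It holds 487 assembled transcripts, of which 404 passed the filter on dim signal, and 24 of those passed the threshold (4 higher and 20 lower at 18 ppt). The 24 carried 23 distinct sets of probes, since both assembled transcripts named si:ch211-69g19.2 carry the same oligonucleotides. Of the 139 probes past the threshold, 105 were not on the list and have no name here.

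The anion exchanger slc26a6l carried the largest difference among the named transcripts that passed. Its 2 probes, which share no stretch of 20 bases or more, are shown because each alone passed the threshold without fish 5.
slc26a6l probe 1: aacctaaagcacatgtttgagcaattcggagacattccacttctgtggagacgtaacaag
slc26a6l probe 2: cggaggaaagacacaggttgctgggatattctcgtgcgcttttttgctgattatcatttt

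Proteins of this family exchange chloride for bicarbonate and other anions across epithelial membranes. The log2 level of slc26a6l was 6.03, 7.79, 6.62 and 9.82 in 18 ppt fish 1, 5, 6 and 7, against 10.75, 11.70, 11.24 and 11.09 in 12 ppt fish 1 to 4. Every fish at 18 ppt was below every fish at 12 ppt, which held for 4.59% of all transcripts and single probes in that direction, and fish 7 was closest to the 12 ppt fish. The difference was -3.63 ± 0.57 (SE) on the log2 scale, a level 12.4-fold lower at 18 ppt (adjusted p = 0.000556), and it was -3.70 ± 0.62 without fish 5 (adjusted p = 0.00135). Probe 1 gave -3.52 and probe 2 gave -3.74 (adjusted p = 0.000431 for each). At a photomultiplier setting of 580 the difference was -5.20, with 18 ppt fish 1 alone against 12 ppt fish 1 to 3. That fish was read on another scan day than these. At 610 the difference was -3.01, with 12 ppt fish 4 alone on its side. Between 18 ppt fish 5 and 12 ppt fish 4, which shared a slide, it was -3.29. With photomultiplier setting and scan day as covariates the difference between the groups was -3.69 (adjusted p = 0.00174).

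At 12 ppt the mean level of slc26a6l, 11.20, was close to that of the 2.3 ppt handling controls, which ran between 9.74 and 11.37 with a mean of 10.84, and 3 of the 4 fish at 18 ppt lay below that range. Against these controls, which both comparisons share, slc26a6l differed by -3.28 at 18 ppt (adjusted p = 0.000181; 13 of 14254 transcripts passed, 0.0912%, and 8 of 14233 without fish 5) and by 0.35 at 12 ppt (adjusted p = 0.933; 142 of 14253 passed, 0.996%). Without fish 5 the difference at 18 ppt was -3.35 (adjusted p = 0.00149). At 0 h the means were 10.67 ± 0.75 at 18 ppt and 10.53 ± 1.15 at 12 ppt (SD, n = 4 each). At 18 h they were 10.72 ± 0.59 at 18 ppt (SD, n = 4) and 10.59 ± 0.52 at 12 ppt (SD, n = 3). The difference at 42 h less that at 0 h was -3.78 (adjusted p = 0.0181; 54 of 14253 passed, 0.379%), a call that was lost without fish 5 at -3.84 (adjusted p = 0.0882). The difference at 42 h less that at 18 h was -3.76 (adjusted p = 0.0707; 5 of 14250 passed, 0.0351%).

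foxa1 encodes hepatocyte nuclear factor 3-alpha, a transcription factor that opens chromatin during the differentiation of epithelial tissues. Its 2 probes overlap, as those of 165 of the 210 listed transcripts with 2 probes do by 20 bases or more, and are shown because they count as close to 1 measurement. The 54 bases they share are in capitals.
foxa1 probe 1: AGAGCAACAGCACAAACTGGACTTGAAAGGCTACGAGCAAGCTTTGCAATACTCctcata
foxa1 probe 2: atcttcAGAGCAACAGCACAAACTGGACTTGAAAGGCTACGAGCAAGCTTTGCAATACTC

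The log2 level of foxa1 was 5.98, 7.23, 5.64 and 7.08 in 18 ppt fish 1, 5, 6 and 7, against 7.81, 7.97, 7.97 and 8.28 in 12 ppt fish 1 to 4. The groups did not overlap, and fish 1 and 6 were the lowest. The difference was -1.52 ± 0.28 (adjusted p = 0.00337), 2.87-fold lower at 18 ppt, and it was larger without fish 5, at -1.76 ± 0.29 (adjusted p = 0.00129). The controls at 2.3 ppt averaged 7.89. Against them foxa1 differed by -1.41 at 18 ppt (adjusted p = 0.00199, and -1.65 without fish 5, adjusted p = 0.000493) and by 0.11 at 12 ppt (adjusted p = 0.965). The difference at 42 h less that at 0 h was -1.25 (adjusted p = 0.115, and -1.49 without fish 5, adjusted p = 0.171), and less that at 18 h it was -1.43 (adjusted p = 0.229, and -1.67 without fish 5, adjusted p = 0.178).

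**Figure D2:**
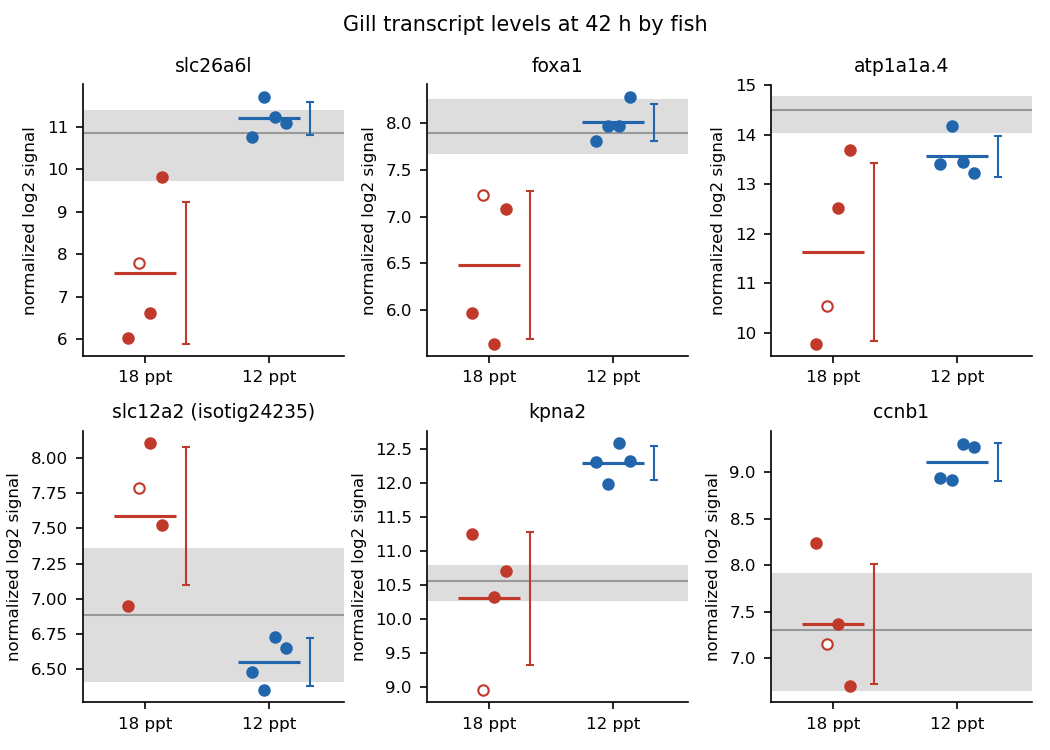
Each panel plots the normalized log2 signal of 1 transcript at 42 h in 4 fish at 18 ppt (red) and 4 fish at 12 ppt (blue), with the array of 18 ppt fish 5 as an open circle; short lines are group means, error bars are SD, and the grey band and line are the range and mean of 6 handling controls at 2.3 ppt. slc26a6l, foxa1, kpna2 and ccnb1 were lower in every fish at 18 ppt, slc12a2 isotig24235 was higher in every fish, and atp1a1a.4 overlapped.

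The transporters of the ionocyte did not move one way. Of 22 listed transcripts for ion, acid-base and water transport, 18 passed the filter, 2 of these were lower and 1 was higher at 18 ppt at the threshold (0.751 and 0.0982% of all transcripts and single probes), and the median difference was -0.49, against -0.03 over all transcripts and single probes. Of the 404 listed transcripts past the filter, from which these were drawn, 20 were lower and 4 higher at the threshold, with a median of -0.159. Without fish 5 the median of the transport list was -0.40 and slc26a6l alone passed. The 2 others were the Na+/K+-ATPase subunit atp1a1a.4 and the cotransporter slc12a2, whose probes are shown because only 1 of the 2 probes of each passed the threshold alone.
atp1a1a.4 probe 1: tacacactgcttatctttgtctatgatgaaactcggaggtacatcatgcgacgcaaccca
atp1a1a.4 probe 2: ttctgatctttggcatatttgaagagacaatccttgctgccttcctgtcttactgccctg
slc12a2 isotig24235 probe 1: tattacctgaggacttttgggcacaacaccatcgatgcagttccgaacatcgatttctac
slc12a2 isotig24235 probe 2: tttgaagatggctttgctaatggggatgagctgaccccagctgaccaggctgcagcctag

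atp1a1a.4 is a catalytic alpha subunit of Na+/K+-ATPase, the pump that drives ion movement in ionocytes. Its log2 level was 9.79, 10.54, 12.53 and 13.69 in 18 ppt fish 1, 5, 6 and 7, against 13.41, 14.17, 13.44 and 13.24 in 12 ppt fish 1 to 4. The groups overlapped, because fish 7 lay among the 12 ppt fish while fish 1 and 5 were far below them. The difference was -1.93 ± 0.49 (adjusted p = 0.0349), and it did not pass without fish 5 (-1.57, adjusted p = 0.376). Probe 1 was flagged as an outlier spot in 18 ppt fish 6 and 12 ppt fish 3, where the level rests on the dimmer probe 2. Probe 1 alone gave -2.26 (adjusted p = 0.026) and probe 2 alone -1.94 (adjusted p = 0.0514). At a photomultiplier setting of 580 the difference was -3.89, with 18 ppt fish 1 alone against 12 ppt fish 1 to 3. That fish was read on another scan day than these. At 610, with 12 ppt fish 4 alone on its side, the difference was -0.99 with fish 5 and -0.13 without it. Within each setting the difference thus rested on fish 1 or fish 5. The controls averaged 14.51, above both groups, and the difference from them was -2.87 at 18 ppt (adjusted p = 0.000136, and -2.51 without fish 5, adjusted p = 0.00763) and -0.94 at 12 ppt (adjusted p = 0.459).

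None of the other 3 listed Na+/K+-ATPase transcripts passed. The second alpha subunit, atp1a1a.1, averaged 8.07 ± 0.86 at 18 ppt and 8.37 ± 0.30 at 12 ppt (SD, n = 4 each; difference -0.30, adjusted p = 0.569). The beta subunit atp1b1b averaged 11.42 ± 1.04 at 18 ppt and 12.10 ± 0.26 at 12 ppt (SD, n = 4 each; difference -0.67, adjusted p = 0.269), with 18 ppt fish 6 measured on 1 of its 2 probes. A transcript annotated as like the gamma subunit, a regulator of the pump (isotig07927), averaged 9.29 ± 0.92 at 18 ppt and 10.08 ± 0.35 at 12 ppt (SD, n = 4 each; difference -0.79, adjusted p = 0.154). That difference became -0.34 without fish 5, the lowest fish of its group.

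slc12a2 encodes the Na+/K+/2Cl- cotransporter of secretory ionocytes, and the list holds 2 assembled transcripts of that name. The log2 level of isotig24235 was 6.95, 7.78, 8.10 and 7.52 in 18 ppt fish 1, 5, 6 and 7, against 6.48, 6.35, 6.73 and 6.65 in 12 ppt fish 1 to 4. All 4 fish at 18 ppt were above the 12 ppt fish, which held for 3.49% of all transcripts and single probes in that direction. The difference of 1.03 ± 0.28 lay just inside the threshold (adjusted p = 0.0492) and kept its size but not its call without fish 5 (0.97, adjusted p = 0.342). These values came from probe 2, since probe 1 was too dim for the filter, where it gave 1.03 (adjusted p = 0.204). The control mean of 6.88 lay between the groups. The second transcript, isotig19205, had log2 levels of 8.81, 11.03, 8.50 and 8.18 at 18 ppt, against 7.48, 7.27, 7.93 and 8.84 at 12 ppt. Its groups overlapped and its difference of 1.25 (adjusted p = 0.277) became 0.62 without fish 5, the highest of the 18 ppt fish.

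The channels and carriers described next did not pass. The inward rectifier potassium channel KCNJ16 differed by -0.76 (adjusted p = 0.319), the aquaglyceroporin aqp3b by -0.79 (isotig17813, adjusted p = 0.316), and the ammonia channel rhcga, a marker of ionocytes, by -0.997 (adjusted p = 0.264), which became -0.37 without fish 5. The potassium channel kcnj1b (-0.04), the membrane protein prom2 (0.02) and NIPAL2, of a family of magnesium transporters (0.21), lay near 0 in directions that turned with the processing. So did the anoctamin ano10a, too dim for the filter (0.21 in the fit without one). Of 6 transcripts set as ionocyte markers, which the transport list also holds, 4 were lower and 2, both of slc12a2, were higher at 18 ppt. Their mean log2 level was 9.12 to 10.49 in fish at 18 ppt, 9.94 to 10.25 at 12 ppt and 10.17 to 10.59 at 2.3 ppt. These mean levels overlapped between 18 and 12 ppt, and ionocyte number and RNA per ionocyte cannot be told apart in whole gill.

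Transcripts of cell division made up the largest group of named transcripts past the threshold. Of 27 listed for the cell cycle, DNA replication and chromosome segregation, 16 passed the filter. All 16 differed in the direction of lower at 18 ppt, 9 of them past the threshold (0.751% of all transcripts and single probes were called lower) and none higher, with a median difference of -1.04, against 52.0% of all transcripts and single probes below 0 and a median of -0.03. In 11 of the 16 every fish at 18 ppt was below every fish at 12 ppt, against 4.59% of all transcripts and single probes. Without fish 5 none passed (2 transcripts passed in all, 941 at an unadjusted p under 0.05), but the 16 differences were still below 0 (49.8% of all transcripts and single probes), with a median of -1.02, and 11 of the 16 still did not overlap, against 5.81% of all transcripts and single probes. Leaving out 12 ppt fish 3 left 2 past the threshold and leaving out 12 ppt fish 1 left 5, with medians of -0.82 and -1.01.

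kpna2 and ccnb1 had the largest differences of the group, and their probes are shown as its measurements, each transcript having 1 on the list.
kpna2: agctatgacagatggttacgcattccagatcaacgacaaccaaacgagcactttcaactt
ccnb1: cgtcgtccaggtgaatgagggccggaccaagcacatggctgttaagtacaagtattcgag

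kpna2, an importin alpha that carries proteins into the nucleus and is abundant in dividing cells, had log2 levels of 11.25, 8.95, 10.32 and 10.70 in 18 ppt fish 1, 5, 6 and 7, against 12.30, 11.98, 12.58 and 12.32 in 12 ppt fish 1 to 4. Fish 5 was the lowest, and the groups were apart without it as well. The difference was -1.99 ± 0.35 (adjusted p = 0.00318), and -1.54 without fish 5 (adjusted p = 0.0808). ccnb1, the cyclin that takes cells into mitosis, had log2 levels of 8.24, 7.15, 7.37 and 6.70 at 18 ppt, against 8.94, 8.92, 9.30 and 9.27 at 12 ppt. Here fish 7 was the lowest, and fish 5 lay within the range of the other 3. The difference was -1.74 ± 0.39 (adjusted p = 0.0177), and -1.67 without fish 5 (adjusted p = 0.118).

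The other cell division transcripts past the threshold belong to the machinery of mitosis and of chromosome structure. The ubiquitin-conjugating enzyme ube2c, which marks mitotic cyclins for destruction, averaged 8.89 ± 0.89 at 18 ppt and 10.40 ± 0.22 at 12 ppt (difference -1.51, adjusted p = 0.00782). Of the chromosomal passenger complex, the kinase aurkb differed by -1.38 (adjusted p = 0.0136) and its partner birc5a, a survivin, by -1.31 (adjusted p = 0.0196). The centromere protein cenpo averaged 6.76 ± 0.44 at 18 ppt and 8.03 ± 0.13 at 12 ppt (SD, n = 4 each; difference -1.27, adjusted p = 0.00782). The spindle motor kifc1 differed by -1.16 (adjusted p = 0.0349) and the condensin subunit smc2 by -1.12 (adjusted p = 0.0136). The ninth was dut, which keeps uracil out of DNA and lay outside the rule for naming (difference -0.94, adjusted p = 0.0118). In all 9 every fish at 18 ppt was below every fish at 12 ppt. prim1, the catalytic subunit of DNA primase, had the smallest difference of the 16, at -0.25 (adjusted p = 0.528). Among the 11 members too dim for the filter, the mitotic kinase pbk passed in the fit without a filter, with log2 levels of 6.94, 4.17, 5.74 and 6.09 at 18 ppt, against 7.82, 7.59, 7.92 and 7.93 at 12 ppt (difference -2.08, adjusted p = 0.00873, and -1.56 without fish 5, adjusted p = 0.356). Of other cell cycle genes that the study names, zwilch differed by -0.87 (adjusted p = 0.0736). CENPU and hells were too dim for the filter. In the probe fit without a filter, CENPU gave -0.43 (adjusted p = 0.407). The hells probes lay the other way, at 0.246 and 0.295 (adjusted p = 0.703 and 0.5775).

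**Figure D3:**
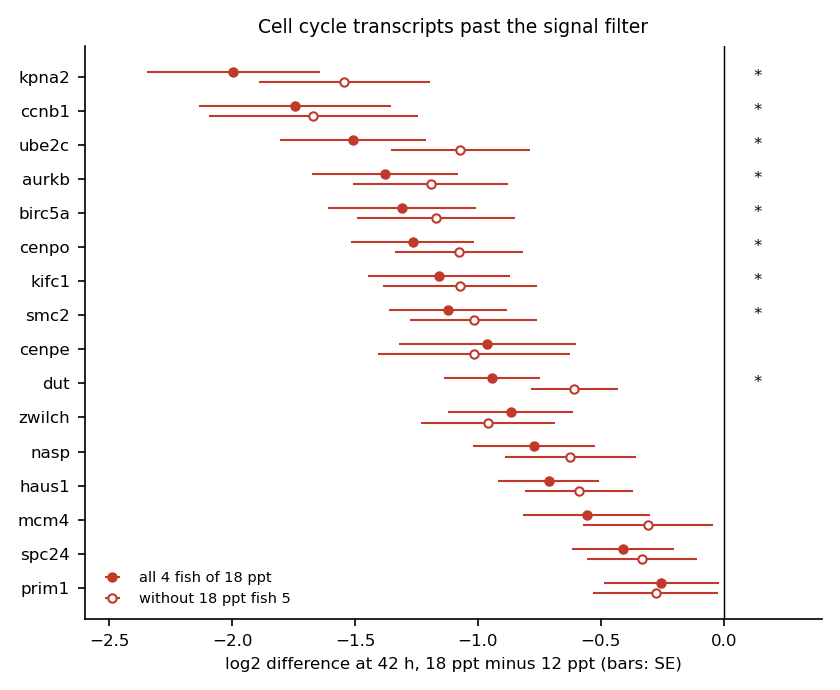
Log2 difference at 42 h, 18 ppt minus 12 ppt, of the 16 cell cycle transcripts past the signal filter, with all 4 fish of 18 ppt (filled) and without 18 ppt fish 5 (open); bars are SE and an asterisk marks an adjusted p of at most 0.05 with all fish. All differences lie below 0 in both fits, from -1.99 for kpna2 to -0.25 for prim1 with all fish.

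Set beside the handling controls, it was 12 ppt that stood out in this group. The mean log2 level of the 16 transcripts was 8.83, 7.85, 8.24 and 8.28 in 18 ppt fish 1, 5, 6 and 7, against 9.34, 9.15, 9.46 and 9.49 in 12 ppt fish 1 to 4. The 6 controls ran between 7.75 and 8.39, so that 3 of 4 fish at 18 ppt lay within their range and every fish at 12 ppt lay above it. Against the controls, which both comparisons share, the median difference was 0.23 at 18 ppt (0.41 without fish 5) and 1.40 at 12 ppt. At 18 ppt 13 of the 16 were above 0, and at 12 ppt all 16 were. Over all transcripts and single probes, 6812 of 14254 were above 0 at 18 ppt and 7425 at 12 ppt. Of the 404 listed transcripts past the filter, 182 were above 0 at 18 ppt and 222 at 12 ppt. kpna2 differed from the controls by -0.25 at 18 ppt (adjusted p = 0.702, and 0.20 without fish 5) and by 1.74 at 12 ppt (adjusted p = 0.00119), and ccnb1 by 0.06 at 18 ppt (adjusted p = 0.939) and by 1.80 at 12 ppt (adjusted p = 0.00287). At 0 h the mean level of the 16 was 8.29 ± 0.52 at 18 ppt and 7.87 ± 0.26 at 12 ppt (SD, n = 4 each). At 18 h it was 8.03 ± 0.08 at 18 ppt (SD, n = 4) and 7.86 ± 0.18 at 12 ppt (SD, n = 3). The order of the means at 42 h was thus the reverse of that at both earlier times, when the fish of 18 and 12 ppt overlapped.

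The change of the difference with time passed the threshold for 9 of these transcripts against 0 h (54 of 14253 transcripts and single probes passed, 0.379%). They are the 9 already called at 42 h. The change includes the difference at 42 h, so these calls are not independent of the earlier ones. The difference at 42 h less that at 0 h was -2.53 for kpna2 (adjusted p = 0.0103), -2.46 for ccnb1 (adjusted p = 0.0241), -2.19 for aurkb (adjusted p = 0.0103) and -2.18 for ube2c (adjusted p = 0.0103), and the other 5 were birc5a, cenpo, dut, kifc1 and smc2. Against 18 h the change passed for ube2c (-2.26, adjusted p = 0.0215), cenpo (-1.77, adjusted p = 0.0316) and dut (-1.58, adjusted p = 0.0142), where 5 of 14250 transcripts and single probes passed (0.0351%). Without fish 5 no transcript passed either test (limma; 1151 against 0 h and 722 against 18 h at an unadjusted p under 0.05), and the values for ube2c were -1.74 against 0 h and -1.82 against 18 h. With slide as a fixed block, or with photomultiplier setting and scan day as covariates, no probe passed against 0 h (limma; 4430 and 2064 at an unadjusted p under 0.05) and 2 probes passed against 18 h in each fit. Some arrays at 0 h also correlated poorly with the others. Their median correlation was 0.761 and 0.786 in 12 ppt fish 3 and 4 of that time, and 0.793 in 18 ppt fish 2. The median signal of that 12 ppt fish 3 was 17.1. The part of these arrays in the change from 0 h was not tested. The 6 transcripts set as markers of proliferating cells that passed the filter, all of them members of this list, had a mean level of 7.61 to 8.77 at 18 ppt, 9.12 to 9.52 at 12 ppt and 7.44 to 8.36 at 2.3 ppt. More dividing cells and more RNA of these genes per cell cannot be told apart.

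**Figure D4:**
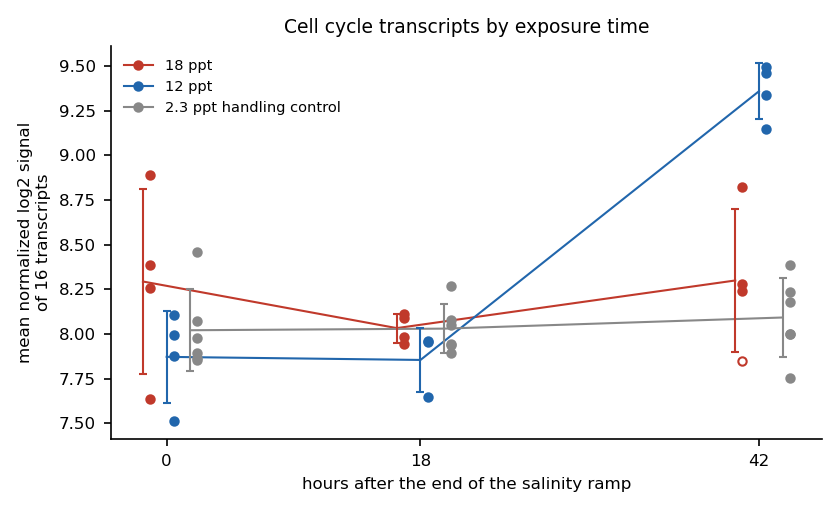
Mean normalized log2 signal of the 16 cell cycle transcripts in each fish at 0, 18 and 42 h after the salinity rise, for 18 ppt (red, with fish 5 at 42 h as an open circle), 12 ppt (blue) and the 2.3 ppt handling control (grey); lines join group means and error bars are SD. At 42 h the 12 ppt fish lie at 9.15 to 9.49, above the 18 ppt fish at 7.85 to 8.83 and the controls at 7.75 to 8.39.

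The named transcripts that passed outside these groups were fewer. si:ch211-69g19.2, of unknown role here, was lower at 18 ppt by -1.62 and -1.60 in its 2 entries (adjusted p = 0.00782 for each), which share their probes, and by -1.50 and -1.46 without fish 5, where neither passed (adjusted p = 0.0808 and 0.0834). Its levels in isotig14209 were 8.29, 7.23, 7.34 and 7.57 at 18 ppt, against 9.53, 9.03, 9.10 and 9.26 at 12 ppt. The lipoxygenase si:dkey-17e16.9, of the epidermis type by its annotation, averaged 9.95 ± 1.14 at 18 ppt and 11.67 ± 0.37 at 12 ppt (SD, n = 4 each), with 18 ppt fish 1 among the 12 ppt fish (difference -1.72, adjusted p = 0.0365, and -1.30 without fish 5, adjusted p = 0.427). The protease blmh, bleomycin hydrolase, averaged 8.01 ± 0.52 at 18 ppt and 9.16 ± 0.17 at 12 ppt (SD, n = 4 each) with no overlap (difference -1.15, adjusted p = 0.00798, and -1.11 without fish 5, adjusted p = 0.0808).

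Besides slc12a2, 3 named or listed transcripts were higher at 18 ppt. ccl19, a chemokine that guides lymphocytes and dendritic cells in mammals, was measured in 3 fish of each group, because both of its probes were flagged as outlier spots in 18 ppt fish 6 and 12 ppt fish 3. Its log2 level was 13.15, 14.86 and 12.42 in 18 ppt fish 1, 5 and 7, against 10.99, 10.29 and 12.64 in 12 ppt fish 1, 2 and 4. The groups overlapped, fish 5 was the highest, and the difference of 2.17 ± 0.58 (adjusted p = 0.0487) became 1.48 without it (adjusted p = 0.625). ppp1r14ba, an inhibitor of protein phosphatase 1, had levels of 6.26, 7.62, 6.58 and 6.82 at 18 ppt, against 4.59, 5.12, 5.81 and 6.15 at 12 ppt (difference 1.40 ± 0.34, adjusted p = 0.0307, and 1.13 without fish 5, adjusted p = 0.353). Its groups did not overlap, and the controls, at a mean of 6.78, lay with the 18 ppt fish. isotig05838, which carries no gene symbol, had levels of 7.20, 7.75, 8.06 and 7.89 at 18 ppt, against 6.56, 6.58, 6.70 and 6.55 at 12 ppt (difference 1.13 ± 0.26, adjusted p = 0.0214, and 1.12 without fish 5, adjusted p = 0.118).

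The immune lists moved little at the threshold. Of 21 transcripts of cytokines, chemokines and inflammation past the filter, ccl19 alone passed (0.849% of all transcripts and single probes passed). The median difference of the list was 0.17, against -0.03 over all. The inflammatory cytokine il1b, at the other end of that list, averaged 9.37 ± 1.24 at 18 ppt and 10.34 ± 1.28 at 12 ppt (SD, n = 4 each; isotig08775, difference -0.97, adjusted p = 0.502). The 2 transcripts of the epithelial cytokine il17a/f3 differed by 1.24 (isotig05374, adjusted p = 0.195) and 0.95 (isotig05375, adjusted p = 0.351), and the JAK-STAT inhibitor socs3b by 0.93 (adjusted p = 0.200). The 5 leukocyte markers past the filter, of which il1b supplies 2, had a mean level of 7.42 to 8.89 at 18 ppt, lowest in fish 5, 8.62 to 9.58 at 12 ppt and 8.46 to 9.36 at 2.3 ppt.

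Of 10 interferon-linked antiviral transcripts past the filter, none passed the threshold, and 9 were above 0, with a median of 0.41. Over all transcripts and single probes 52.0% were below 0 (49.8% without fish 5), with a median of -0.03. Of the 404 listed transcripts past the filter, 151 were above 0 (171 without fish 5), with a median of -0.159. Without fish 5 all 10 were above 0 and the median was 0.29. Their mean log2 level was 8.79, 8.93, 8.80 and 9.01 in 18 ppt fish 1, 5, 6 and 7, against 8.52, 8.26, 8.32 and 8.47 in 12 ppt fish 1 to 4. The 2 sets did not overlap, and both lay within the range of the controls, 8.02 to 9.08. The salinities stood in the same order at 0 h, with means of 9.14 ± 0.23 at 18 ppt and 8.72 ± 0.15 at 12 ppt (SD, n = 4 each), and at 18 h, with 9.21 ± 0.18 at 18 ppt (SD, n = 4) and 8.65 ± 0.20 at 12 ppt (SD, n = 3). rsad2, the antiviral enzyme viperin, was the highest of them, with levels of 8.35, 7.45, 7.75 and 8.02 at 18 ppt, against 6.11, 6.48, 6.84 and 6.77 at 12 ppt (difference 1.34 ± 0.55, adjusted p = 0.178), and ftr16 isotig06045 was the lowest, at -0.06.

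The lists of growth and metabolism had medians below 0 with all fish and no more than 1 member past the threshold each. Over all transcripts and single probes 0.849% passed, 52.0% were below 0 (49.8% without fish 5) and the median was -0.03. The 404 listed transcripts past the filter, from which these lists were drawn, had a lower median of -0.159 (-0.092 without fish 5). Of these lists, only lipid and carbohydrate metabolism had a median above that of the listed transcripts, with and without fish 5. All 13 transcripts of mitochondrial respiration and import were lower at 18 ppt in direction, with a median of -0.43 (-0.40 without fish 5, with 11 of 13 below 0) and 1 past the threshold, the mitochondrial ribosomal protein mrpl46, named here after its values were seen (-0.81, adjusted p = 0.0136, and -0.62 without fish 5, adjusted p = 0.244). The ends of the list were COQ10A at -1.12 and mrpl28 at -0.14. All 8 transcripts of tRNA charging and amino acid synthesis were below 0, with a median of -0.36 that became -0.19 without fish 5, and seryl-tRNA synthetase sars came nearest to the threshold (-1.50, adjusted p = 0.0586). Of 22 ribosome biogenesis transcripts, 17 were below 0, with a median of -0.31 that became -0.19 without fish 5, and gltscr2 was the lowest (-0.84, adjusted p = 0.0552). In all 3 lists 18 ppt fish 5 or 6 had the lowest mean and fish 1 stood above the other 3 fish of its group. In tRNA charging and in ribosome biogenesis fish 1, at 9.71 and 9.33, was also above every 12 ppt fish (highest 9.52 and 9.14). At 18 h the medians were -0.738 for tRNA charging, -0.547 for ribosome biogenesis and -0.341 for mitochondrial respiration, against -0.348 over the 404 listed transcripts. In lipid and carbohydrate metabolism the median at 42 h was -0.13, from cers2a at -0.70 to pecr at 0.67, and it turned to 0.04 without fish 5, with 7 of 11 above 0.

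The regulators, junctions and chaperones were spread on both sides of 0. Among 16 regulators past the filter foxa1 alone passed (0.849% of all transcripts and single probes passed). The osmotically regulated transcription factor tsc22d1 had levels of 6.20, 6.79, 5.87 and 6.70 at 18 ppt, against 7.05, 7.81, 7.42 and 7.79 at 12 ppt, with no overlap (difference -1.12, adjusted p = 0.0763, and -1.25 without fish 5, adjusted p = 0.263). The receptor hcar1-1 also did not overlap (-0.92, adjusted p = 0.0988), nor did PTAFR, the receptor for platelet-activating factor, at the other end of the list (0.71, adjusted p = 0.255). Of all transcripts and single probes, 4.59% were lower at 18 ppt without overlap and 3.49% were higher without overlap. Of 13 junction, matrix and cytoskeleton transcripts none passed, and their differences ran from -0.88 for the desmosomal plakophilin pkp3a (adjusted p = 0.0699) to 1.70 for si:dkey-31e10.5 (adjusted p = 0.118). Of 11 transcripts of protein folding in the endoplasmic reticulum none passed, and they ran from -0.57 for hsp90b1 isotig10070 to 0.84 for hspa5 isotig15583, the chaperone BiP (adjusted p = 0.113). Of 8 JAK-STAT transcripts none passed, and they ran from -0.32 for cish isotig18733 to 1.01 for the cytokine m17 (adjusted p = 0.179).

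**Figure D5:**
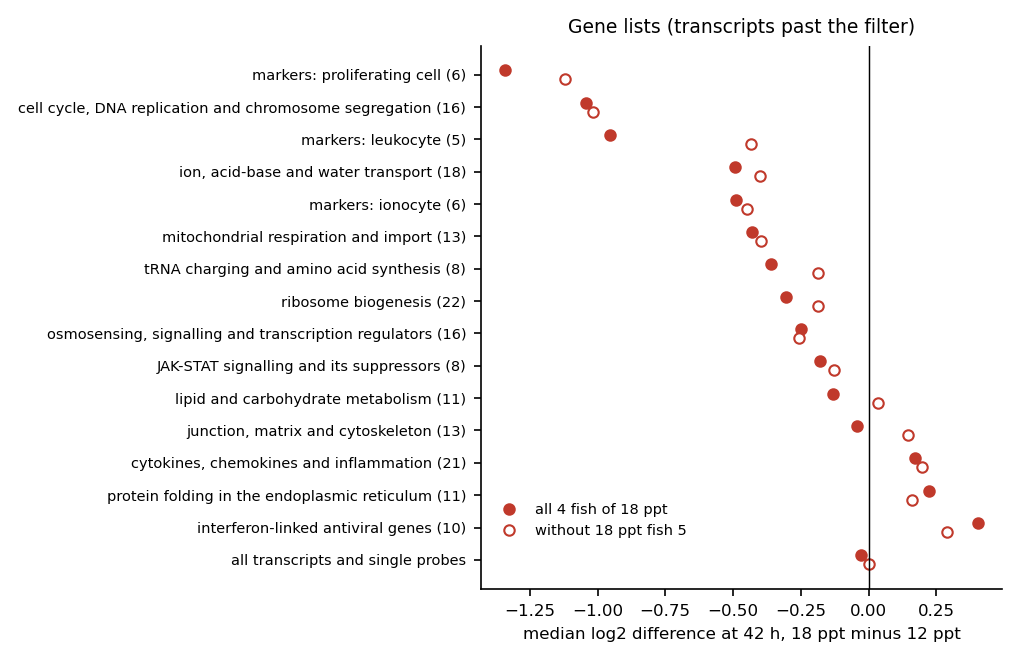
Median log2 difference at 42 h, 18 ppt minus 12 ppt, over the transcripts of each list past the signal filter (number in brackets), with all 4 fish of 18 ppt (filled) and without 18 ppt fish 5 (open); the bottom row is the median over all transcripts and single probes. The cell cycle list lies at -1.04 and -1.02, and the antiviral list at 0.41 and 0.29.

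Among the 105 probes with no name here, the 2 lower and the 2 higher ones with the smallest p are given by their identifiers. CUST_14736 had log2 levels of 11.21, 8.91, 10.38 and 10.77 at 18 ppt, against 12.17, 12.09, 12.51 and 12.36 at 12 ppt (adjusted p = 0.00295). Its identifier is next to that of the listed kpna2 probe, from which it differed by at most 0.126 in any of the 8 fish. CUST_11602 had 7.42, 5.96, 6.63 and 6.99 at 18 ppt, against 8.20, 8.05, 8.41 and 8.41 at 12 ppt (adjusted p = 0.00193), and its identifier is next to that of the listed cenpo probe, from which it differed by at most 0.344. CUST_682 was higher at 18 ppt, with 11.45, 13.21, 12.43 and 12.30, against 11.22, 10.97, 10.78 and 11.58 at 12 ppt (adjusted p = 0.0103), and 18 ppt fish 1 overlapped the 12 ppt fish. CUST_26351 was higher at 18 ppt, with 7.28, 6.76, 7.70 and 7.20, against 5.59, 5.85, 5.72 and 6.19 at 12 ppt (adjusted p = 0.0138), and its difference of 1.40 was 1.55 without fish 5 (adjusted p = 0.0522).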

How the data were processed

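Gill RNA of single delta smelt was hybridised with Cy3 to a custom single-colour Agilent array. The deposited files hold the scanner intensity of each spot after background subtraction (Feature Extraction 11.5.1.1, by the authors), and the authors also deposited a table of normalized log2 values, used here as an alternative. From the intensities, outlier spots were left out (2036 among kept probes), values were quantile normalized and taken to log2, and probes reaching a signal of 100 on 50% of the arrays or more were kept. Group means over 70 arrays were fitted with limma 3.58.1 (R 4.3.3) with the contrast 18 minus 12 ppt at 42 h, and p-values were adjusted over all probes or transcripts. Probes of the same assembled transcript were averaged. A difference of intensities understates large changes near background. The fit was also run on simulated data with independent noise of the same spread on every array, so that this run cannot show how a poor array acts. The arrays were picked by their labels alone, but earlier results of these data were known when they and the gene lists were chosen. Named are transcripts past an adjusted p of 0.05 (at most 15 in each direction), genes the study names, and the ends of each list. Because mean foreground signals were not used here, the normexp alternative (offset 50) started from median signals. The number of arrays limits the precision, and no genome of the species was used.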

Additional observations from a re-analysis of the deposited data

Results flagged for a closer look

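In 7 of 156 sets of 4 fish checked, 1 fish lay far from the other 3 of its group, about the 5% that chance gives. Of the arrays these were 18 ppt fish 5, with a median correlation of 0.610 with the other arrays, and 12 ppt fish 1, with 0.904, the highest of its group. Of the transcripts, the outlying ones were pkp3a in 18 ppt fish 6 (log2 level 6.86, the lowest), hspa5 isotig15583 in 18 ppt fish 6 (13.16, the highest), hsp90b1 isotig10070 in 12 ppt fish 3 (11.12, the highest) and sars in 12 ppt fish 3 (10.05, the highest). The mean of the ribosome biogenesis list in 18 ppt fish 1, 9.33, was the highest of its group.

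The difference between 18 and 12 ppt at 42 h departed from that at 0 h, by a test of the change itself, for 14 named entries. These were slc26a6l (-3.78), kpna2 (-2.53), ccnb1 (-2.46), both entries of si:ch211-69g19.2 (-2.21 and -2.15, the same oligonucleotides), aurkb (-2.19), ube2c (-2.18), birc5a (-1.80), cenpo (-1.78), smc2 (-1.73), kifc1 (-1.64), dut (-1.15), ppp1r14ba (1.96) and ccl19 (3.34). Against 18 h the change passed for ube2c (-2.26), cenpo (-1.77) and dut (-1.58). Over all transcripts and single probes, 54 of 14253 passed against 0 h (0.379%) and 5 of 14250 against 18 h (0.0351%). None of these passed without 18 ppt fish 5, and the fish of each time came from their own containers. Some arrays at 0 h correlated poorly with the others, and their part in these changes was not tested.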

How the results depend on the processing

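Counts of probes and of transcripts past the threshold moved with most choices, and slc26a6l passed in 21 of 23 alternatives, foxa1 in 20 of 23 and kpna2 in 20 of 24. Against 139 probes and 121 transcripts, normexp background gave 276 and 261, scaling to the 75th percentile 267 and 220, a signal of 100 on every array 24 and 15, no filter on dim probes 54 and 47, a filter on probes well above background 82 and 54, the authors' normalized values 219 and 197, and photomultiplier setting and scan day as covariates 33 and 11. A fit of the 8 arrays alone gave 0 and 0 (limma, 1343 probes at an unadjusted p under 0.05), and slide as a random block gave 213 probes. Leaving out 1 array gave 4 to 1085 probes and 2 to 1059 transcripts. Among settings chosen after the data were seen, array quality weights (0.101 for 18 ppt fish 5) gave 370 and 351, leaving out fish 5 with photomultiplier setting and scan day as covariates 4 and 2, and the 8 arrays without fish 5 gave 0 and 0 (1542 probes at an unadjusted p under 0.05).

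For the change from 0 h, against 66 probes, scaling to the 75th percentile gave 134, a signal of 100 on every array 30, the authors' normalized values 151, slide as a fixed block 0, photomultiplier setting and scan day 0, also with fish 5 left out, and leaving out 1 array 0 to 560. For the change from 18 h, against 6 probes, no filter gave 1, well above background 1, slide as a random block 16, slide as a fixed block 2, photomultiplier setting and scan day 2, with fish 5 left out as well 1, array weights 32, and leaving out 1 array 1 to 31. The cause of these moves was not tested.

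The cell cycle median ran from -1.22 to -0.80 over all alternatives, and its members past the threshold from 0 to 12. The array difference in median signal, 1.72, became -15.0 to 14.4 with 1 array left out, and that in the percentage well above background, -2.66, became -5.95 to 2.26. Of 60 named transcripts in 1365 comparisons with an alternative, 38 differences turned sign, none of a transcript past the threshold. They were ftr16 isotig06045 (-0.184 to 0.169 with 1 array left out, 0.1497 with array weights, 0.0704 with photomultiplier setting and scan day and 0.170 in the 8 arrays, both without fish 5), rars (-0.451 to 0.0904 with 1 array left out, 0.114 and 0.0899 in the same fits without fish 5), hsp90b1 isotig10070 (0.0197) and pecr (-0.0580) without fish 5 with photomultiplier setting and scan day, atp1a1a.1 (-0.570 to 0.0062 with 1 array left out), kcnj1b (-0.283 to 0.297 with 1 array left out, 0.189 with a signal of 100 on every array, 0.137 with slide as a fixed block, 0.0421 with photomultiplier setting and scan day and 0.125 in that fit without fish 5, 0.224 with array weights, 0.0563 in the 8 arrays without fish 5), prom2 (-0.0872 to 0.212 with 1 array left out, -0.0325 with normexp, -0.2997 with the 75th percentile, -0.423 with no filter, -0.402 with well above background, -0.427 in the authors' values, -0.0381 in the 8 arrays, -0.0474 and -0.240 with slide as a random and a fixed block, -0.0544 with photomultiplier setting and scan day), NIPAL2 (-0.348 with slide as a fixed block, -0.0356 with photomultiplier setting and scan day, -0.0092 in that fit without fish 5) and ano10a (-0.0679 to 0.408 with 1 array left out, -0.0684 with array weights, -0.0349 with photomultiplier setting and scan day without fish 5). No paired analysis was possible because the groups are of different fish, which an equal replicate number does not link.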
